A study of Homo sapiens with 4 samples.

Results

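The genes described here are 10 germline and early-embryo genes, DPPA2, DPPA3, DPPA4, MAEL, DAZL, DDX4, SYCP3, TDRD1, PIWIL2 and ASZ1, taken by symbol from the 26364 genes in the count tables of NTERA2 cells. NTERA2 is a human embryonal carcinoma line, a malignant counterpart of pluripotent cells. Messenger RNA was sequenced in 2 groups of 2 libraries, labelled BEND3 sh60 (replicates 1 and 2) and BEND3 LacZ (replicates 1 and 3). All 4 libraries came from this line, grown in high-glucose DMEM with serum. The labels do not say how sh60 was delivered, when cells were harvested or whether replicates were separate cultures, so p-values measure only the spread between these libraries, which may be technical. By their names sh60 is taken to be a hairpin targeting BEND3, a BEN-domain repressor of transcription, with LacZ as its control. All 10 symbols were found, 6 passed the filter on low counts and 4 did not.

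Germ cells express a set of genes that most somatic cells keep shut, and in the mouse many of them have promoters rich in CG dinucleotides that are methylated in the early embryo and held silent by that methylation. Some of these genes serve the piRNA pathway, in which PIWI proteins load small RNAs in germ granules to silence transposons, and others serve meiosis. The DPPA genes stand apart, since they are named for expression in pluripotent cells and the early embryo and are shared between that state and the germline. DNA methylation was not measured in these libraries.

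The libraries held 33798665 and 44788461 counts in sh60, against 42538561 and 30338285 counts in LacZ. Levels are given as CPM, the counts scaled to a common library size after TMM normalization. Each read added 0.0221 to 0.0333 CPM, depending on the library. BEND3 measured 55.7 and 52.0 CPM in sh60 replicates 1 and 2, against 68.8 and 79.3 CPM in LacZ replicates 1 and 3. Its log2 fold change was -0.46 (SE 0.098; edgeR quasi-likelihood test, Benjamini-Hochberg adjusted p = 0.00168), and the call was lost without LacZ replicate 3 (adjusted p = 0.153). The labels call the line a lung carcinoma. A list of 6 lung epithelium markers summed to 0.155 to 0.294 CPM in sh60 and 0.399 to 0.594 CPM in LacZ, with SFTPB and SCGB1A1 at 0 counts in all 4 libraries. A list of 10 embryonal carcinoma markers summed to 5713 to 5914 CPM in sh60 and 6132 to 6266 CPM in LacZ. All 10 were tested, and 4 were lower in sh60 (DNMT3B, TDGF1, SALL4 and NANOG) and 1 higher (SOX2) by the edgeR test. Over all tested genes 13.0% were lower and 15.8% higher.

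The promoters of the 10 genes differ in kind, and those of MAEL, DPPA3, DPPA4 and ASZ1 are shown because MAEL and DPPA3 rose, DPPA4 was the most abundant of the genes per length and ASZ1 had no count. Promoter sequences are those of RefSeq on GRCh38.p14, a different build from the hg19 coordinates of the count files, and 9 of the 10 genes, all but PIWIL2, matched an entry. Capitals mark CG dinucleotides, and each stretch is the longest part of the 250 bases before the start site that overlaps no annotated exon and no other gene. For MAEL the stretches are chr1:166975541-166975581 (plus strand), the 41 bases between its distal start and a start of ILDR2 on the opposite strand, and chr1:166989030-166989088, which lies before the start inside the gene. For DPPA3 the stretch is chr12:7711183-7711432 (plus strand), for DPPA4 chr3:109337573-109337796 and for ASZ1 chr7:117427524-117427743 (both minus strand).
MAEL, distal start: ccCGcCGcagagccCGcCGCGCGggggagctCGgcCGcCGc
MAEL, internal start: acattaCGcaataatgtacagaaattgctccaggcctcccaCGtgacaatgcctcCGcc
DPPA3: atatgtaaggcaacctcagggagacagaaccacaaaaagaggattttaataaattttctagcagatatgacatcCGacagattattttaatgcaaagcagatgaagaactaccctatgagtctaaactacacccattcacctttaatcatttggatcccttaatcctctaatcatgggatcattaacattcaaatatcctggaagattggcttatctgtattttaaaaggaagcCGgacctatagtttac
DPPA4: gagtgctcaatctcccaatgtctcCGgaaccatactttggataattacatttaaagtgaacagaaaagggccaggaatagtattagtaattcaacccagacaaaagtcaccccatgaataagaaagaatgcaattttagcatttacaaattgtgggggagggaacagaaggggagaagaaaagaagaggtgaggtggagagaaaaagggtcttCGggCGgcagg
ASZ1: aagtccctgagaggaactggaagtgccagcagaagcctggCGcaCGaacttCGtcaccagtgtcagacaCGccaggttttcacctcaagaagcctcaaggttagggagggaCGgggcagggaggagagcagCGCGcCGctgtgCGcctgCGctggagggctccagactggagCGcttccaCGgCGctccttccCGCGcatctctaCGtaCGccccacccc

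Counted over the full 300-base windows (250 bases before and 50 after each start), DPPA4, DPPA3 and DPPA2 had 5, 6 and 7 CG dinucleotides, against a median of 14 over the 35116 windows of the RefSeq table. The windows of TDRD1, SYCP3, ASZ1, DAZL and MAEL held more CG. TDRD1 had 17 and 21 at its pair of starts, SYCP3 24, ASZ1 29, and DAZL 29 and 33. MAEL had 27 at its internal start and 60 at its distal start, more than 99.9% of all windows had. The DDX4 entry was for a start 50.3 kb from the end of the gene, inside the 79.1 kb span that the count files give, and its CG content was not used. The E-box CACGTG, searched on both strands, was in a window of MAEL (internal start), DAZL and TDRD1 and in 7.26% of all windows. The E2F-like motif GGCGGGA, also searched on both strands, was in the windows of SYCP3 and MAEL (internal start) and in 15.4% of all windows. A match describes letters in a window and shows no binding.

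**Figure D1:**
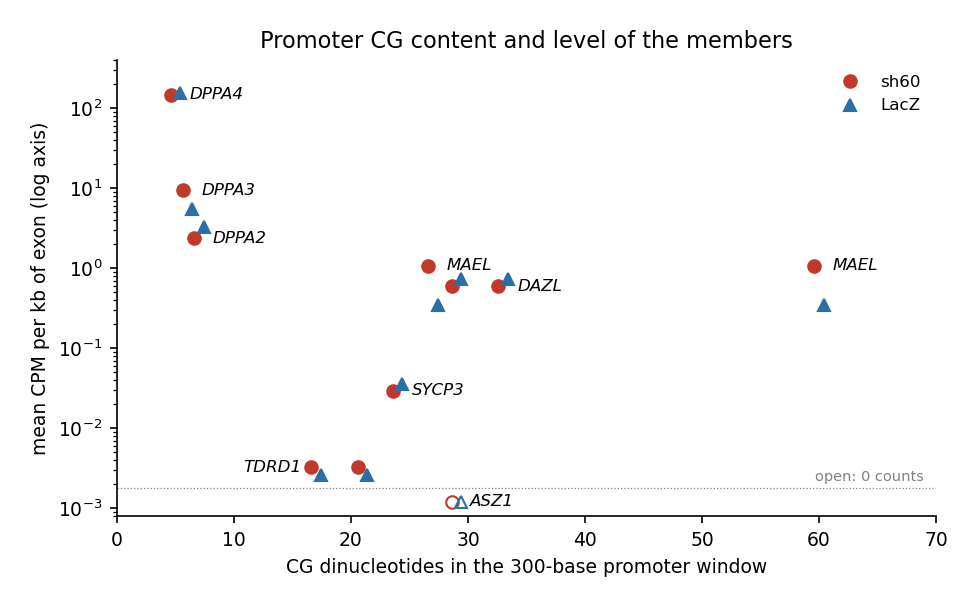
Mean CPM per kb of exon (log axis) of 8 genes in sh60 (circles) and LacZ (triangles) against the number of CG dinucleotides in the 300-base window at each annotated start; genes with 2 annotated starts appear at both, and open symbols mark 0 counts. The 3 DPPA genes lie at 5 to 7 CG with 2.38 CPM per kb or more, and the 5 plotted genes with 17 CG or more lie at 1.07 CPM per kb or less; PIWIL2, at 16.8 CPM per kb in sh60 and 21.0 CPM per kb in LacZ, and DDX4 are not plotted.

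Across these genes the levels fell into clear tiers in both groups. Per kb of exon, DPPA4 measured 147.8 ± 6.90 CPM in sh60 and 155.1 ± 9.33 CPM in LacZ (SD, n = 2 each), above 97.7% of tested genes in both groups. PIWIL2 followed with 16.8 ± 1.98 CPM per kb in sh60 and 21.0 ± 0.268 CPM per kb in LacZ. DPPA3 had 9.43 ± 0.791 and DPPA2 2.38 ± 0.0887 CPM per kb in sh60, against 5.55 ± 0.728 and 3.29 ± 0.440 CPM per kb in LacZ. Only MAEL and DAZL changed places in this order among the 6 genes that passed the filter. MAEL lay above DAZL in sh60 (1.07 ± 0.142 against 0.598 ± 0.00938 CPM per kb) and below it in LacZ (0.346 ± 0.0449 against 0.743 ± 0.181 CPM per kb). In each group the libraries of neighbouring genes in this order did not overlap. The 4 genes under the filter lay at 0.0587 CPM per kb or less in every library, and their order cannot be told from so few counts.

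**Figure D2:**
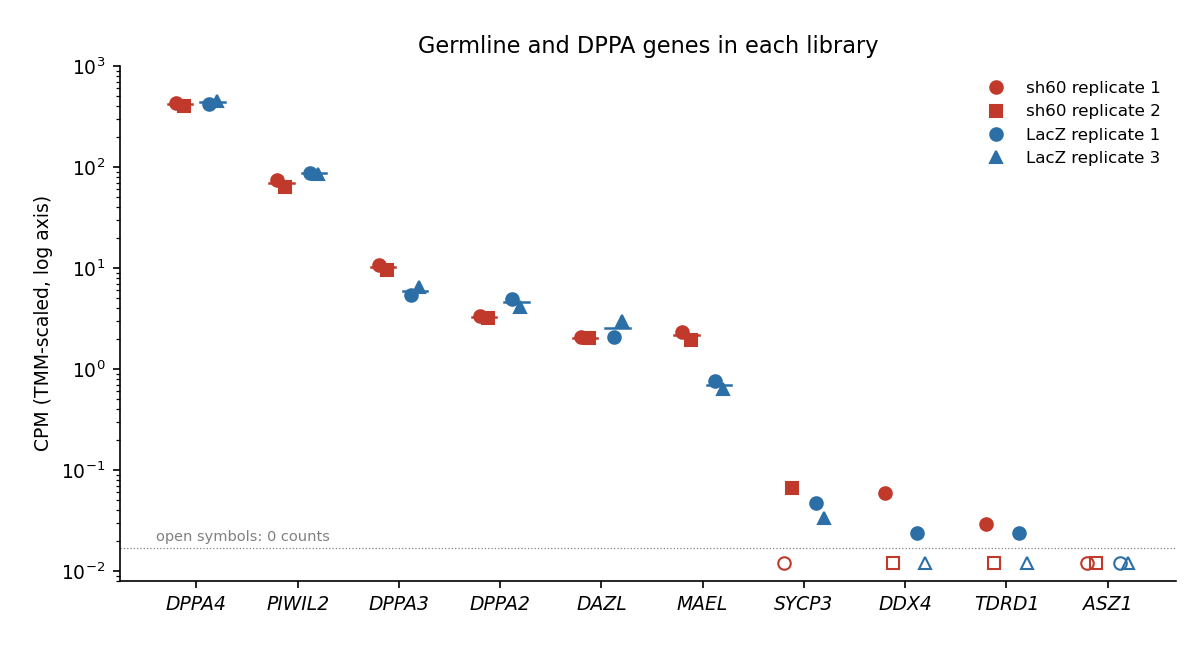
CPM after TMM scaling (log axis) of the 10 genes in each library, with sh60 left of LacZ, horizontal bars at the group means of the 6 tested genes and open symbols for 0 counts. MAEL and DPPA3 are the genes whose sh60 libraries both lie above both LacZ libraries, while SYCP3, DDX4, TDRD1 and ASZ1 stay at 0.0663 CPM or less in all 4 libraries.

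Of the 6 tested genes MAEL and DPPA3 rose in sh60, PIWIL2 fell, and DPPA2, DPPA4 and DAZL did not pass. Across the transcriptome 28.8% of 16040 tested genes were called, 15.8% higher and 13.0% lower in sh60, so 3 calls among 6 genes are set against a high background. The sh60 libraries lay wholly above or wholly below the LacZ libraries for 5 of the 6 genes, against 64.4% of all tested genes. With trends in GC content and gene length removed from each library, the same test called 2 of the 6 higher and 3 lower. Over all genes that setting called 2893 higher and 3708 lower, against 2540 higher and 2084 lower without it.

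**Figure D3:**
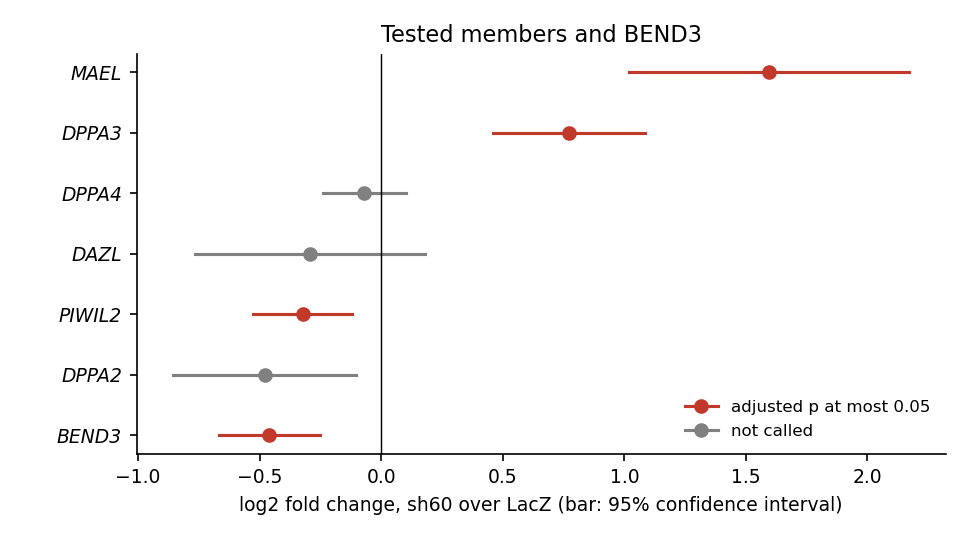
Log2 fold change of sh60 over LacZ with 95% confidence intervals for the 6 tested genes and BEND3; red marks an edgeR adjusted p of at most 0.05. MAEL (1.60) and DPPA3 (0.77) lie to the right of 0, and PIWIL2 (-0.32) and BEND3 (-0.46) lie to the left.

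The DPPA genes did not move together. DPPA3 (chromosome 12, 7864050 to 7870152, hg19, plus strand), also known as Stella or PGC7, is a maternal and primordial germ cell protein that in the mouse shields the maternal genome from demethylation and can displace UHRF1 from chromatin. It measured 10.7 and 9.54 CPM in sh60 replicates 1 and 2, against 5.41 and 6.52 CPM in LacZ replicates 1 and 3. Both sh60 libraries were above both LacZ libraries. The level was 1.71-fold that of LacZ (95% confidence interval 1.37 to 2.12; log2 fold change 0.77, SE 0.15, edgeR adjusted p = 0.000711). It was called under all 12 alternative settings, with adjusted p from 2.70e-06 to 0.0111. DPPA3 has many processed pseudogenes, and reads that map to several places were left out by the counting defaults, so its absolute level is uncertain.

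DPPA2 and DPPA4 encode paralogous SAP-domain proteins that bind DNA as a pair and in mouse embryonic stem cells keep the promoters of developmental genes from gaining DNA methylation. They lie side by side on chromosome 3, DPPA2 at 109012635 to 109035364 and DPPA4 at 109044988 to 109056419 (hg19, both on the minus strand), 9.62 kb apart. DPPA4 measured 430.0 and 402.5 CPM in sh60 replicates 1 and 2, against 418.2 and 455.4 CPM in LacZ replicates 1 and 3, and the groups overlapped. Its log2 fold change was -0.07 (SE 0.081, edgeR adjusted p = 0.568), with a 95% confidence interval of -0.24 to 0.10. DPPA4 passed only with GC and length trends removed (log2 fold change -0.16, adjusted p = 0.0486). DPPA2 measured 3.38 and 3.20 CPM in sh60, against 4.99 and 4.13 CPM in LacZ. Both sh60 libraries were the lower ones, yet the log2 fold change of -0.48 (SE 0.18) just missed the threshold (edgeR adjusted p = 0.0517). Without LacZ replicate 3 it was -0.60 and passed (adjusted p = 0.0424), and without LacZ replicate 1 it was -0.32 and did not (adjusted p = 0.391). Whether the changes of DPPA2, DPPA3 and DPPA4 differ from each other was not tested.

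MAEL (chromosome 1, 166944819 to 166991449, hg19, plus strand) encodes Maelstrom, a germ granule protein needed for transposon silencing by piRNAs in the mouse testis. It had the largest fold change of the 6 tested genes. The counts were 80 and 88 reads in sh60 replicates 1 and 2, against 32 and 19 reads in LacZ replicates 1 and 3. As CPM this was 2.35 and 1.94 in sh60, against 0.760 and 0.632 in LacZ, and the groups were well apart. The level was 3.02-fold that of LacZ (95% confidence interval 2.03 to 4.50; log2 fold change 1.60, SE 0.27, edgeR adjusted p = 0.000254). All 12 alternative settings kept the call, with log2 fold changes from 1.46 to 1.75. The sh60 level was still low, above that of 23.6% of tested genes per kb of exon, against 12.7% in LacZ. Reads from both annotated starts are summed in the gene count, so the start in use cannot be told apart from these data.

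ILDR2, an immunoglobulin-like membrane protein gene, starts back to back with MAEL on the opposite strand. In the hg19 annotation of the count files the ends of ILDR2 (166882441 to 166944561) and MAEL are 258 bases apart. ILDR2 measured 18.3 and 17.7 CPM in sh60 replicates 1 and 2, against 7.67 and 6.29 CPM in LacZ replicates 1 and 3. It rose 2.56-fold (log2 fold change 1.35, SE 0.13, edgeR adjusted p = 7.35e-07) and was called under all 12 alternatives. Counting used strand, and the pair do not overlap in that annotation. The gene counts do not show where within MAEL its reads lie, and whether the rises of MAEL and ILDR2 are separate was not tested. Among the other tested genes within 200 kb of MAEL, GPA33, DUSP27, TADA1 and POGK did not pass. POU2F1, the farthest of them, was lower in sh60 (log2 fold change -0.34, adjusted p = 0.00921), and not called without LacZ replicate 1 or without LacZ replicate 3. ILDR2 was the only tested gene of this neighbourhood that rose with MAEL by the edgeR test.

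**Figure D4:**
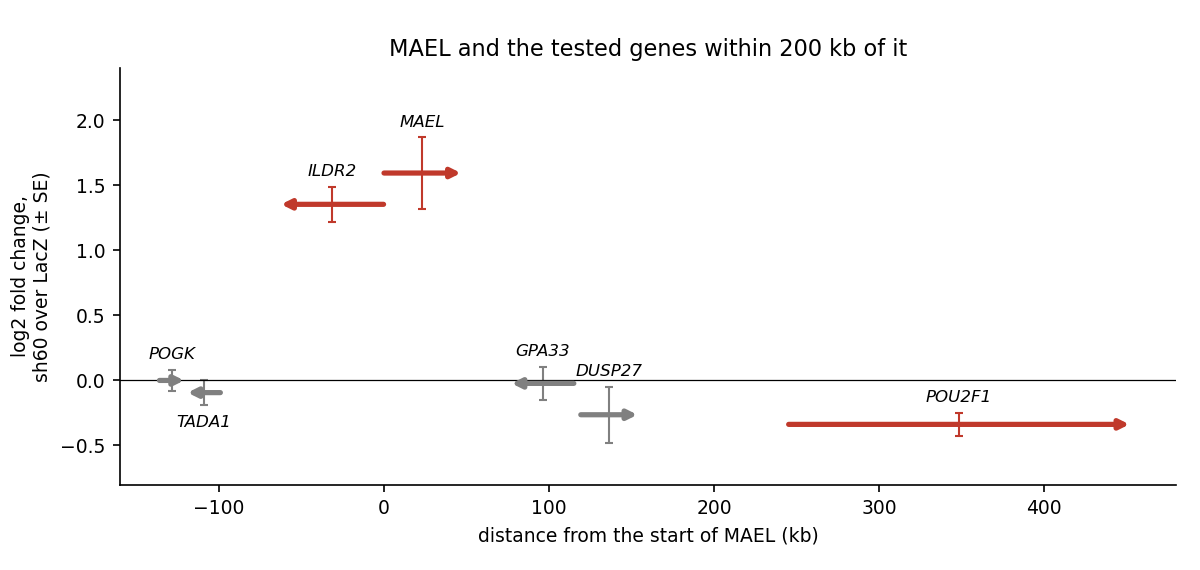
Log2 fold change (± SE) of MAEL and the tested genes within 200 kb of it against distance from the start of MAEL in kb; each arrow spans a gene and points in its direction of transcription, and red marks an edgeR adjusted p of at most 0.05. MAEL (1.60) and the divergent ILDR2 (1.35) stand above the other genes, which lie between -0.34 and 0.00027.

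PIWIL2 encodes the human counterpart of mouse MILI, a PIWI protein that takes part in making piRNAs, and it was the second most abundant of the 10 genes. It measured 74.7 and 63.3 CPM in sh60 replicates 1 and 2, against 87.0 and 85.5 CPM in LacZ replicates 1 and 3. Both sh60 libraries lay below both LacZ libraries, with a log2 fold change of -0.32 (SE 0.097, edgeR adjusted p = 0.0173). The call was lost without LacZ replicate 1 (-0.30, adjusted p = 0.213) and without LacZ replicate 3 (-0.34, adjusted p = 0.179), fits that leave a lone LacZ library and assume it varies as the sh60 libraries do. The sh60 replicates differed from each other by 0.24 on the log2 scale.

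DAZL (chromosome 3, 16628301 to 16647006, hg19, minus strand) encodes an RNA-binding protein that licenses germ cell fate and regulates translation. It measured 2.06 and 2.01 CPM in sh60 replicates 1 and 2, against 2.09 and 2.96 CPM in LacZ replicates 1 and 3. Of the LacZ libraries, replicate 1 was close to sh60 and replicate 3 was higher. The log2 fold change was -0.29 (SE 0.23, edgeR adjusted p = 0.367), with a 95% confidence interval of -0.77 to 0.18. Without LacZ replicate 3 it was -0.04 and without LacZ replicate 1 it was -0.54, and neither passed.

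The other 4 genes were at or close to 0 in every library. SYCP3, a protein of the axial elements of meiotic chromosomes (chromosome 12, 102122426 to 102133250), had 0 and 3 counts in sh60 replicates 1 and 2, against 2 and 1 in LacZ replicates 1 and 3. DDX4, the VASA RNA helicase of germ granules (chromosome 5, 55033845 to 55112974), had 2 and 0 counts in sh60, against 1 and 0 in LacZ. TDRD1, a tudor protein that binds methylated PIWI proteins (chromosome 10, 115939029 to 115992063), had 1 and 0 counts in sh60, against 1 and 0 in LacZ. ASZ1, a germ granule protein of the mitochondrial surface (chromosome 7, 117003276 to 117067577), had 0 counts in all 4 libraries. A count of 0 (limit of 3 counts) allows up to 0.0881 and 0.0663 CPM in sh60 replicates 1 and 2, and up to 0.0712 and 0.0998 CPM in LacZ replicates 1 and 3. These limits cover counting error only, and no difference was detectable at this depth. SYCP3 shares 80 exon bases with CHPT1 on the opposite strand. In a fit with no count filter, the edgeR adjusted p was 0.978 for SYCP3, 0.871 for DDX4 and 0.982 for TDRD1.

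Beyond these genes, 116 further genes in 7 lists were examined, covering the piRNA pathway, meiosis, germ cell specification, early-embryo expression, other germline genes linked with methylation, and their repressors and demethylases. Of these 74 were tested, and 5 rose, 18 fell and 51 did not pass. This was 31.1% called, close to the 28.8% of all tested genes, with 6.76% higher and 24.3% lower, against 15.8% higher and 13.0% lower over all tested genes. The median log2 fold change was -0.16, against -0.0042 over all genes tested. The 5 that rose include TAF7L, which passed the filter only through its sh60 libraries. Without LacZ replicate 1 the fallers numbered 7, and without LacZ replicate 3 also 7. With GC and length trends removed 34 fell. Of the 18 that fell with all 4 libraries and no such removal, 10 were among the 24 repressor genes, where 0 rose. Lower calls in the other lists were 2 of 10 tested piRNA genes, 2 of 16 meiotic genes and 1 of 12 specification genes. They were 2 of 6 early-embryo genes, 1 of 2 other methylation-linked genes and 0 of 4 demethylation genes. The share lower over the 7 lists thus owes more to the repressors than to any other list. It cannot be read as a share of the germline genes.

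**Figure D5:**
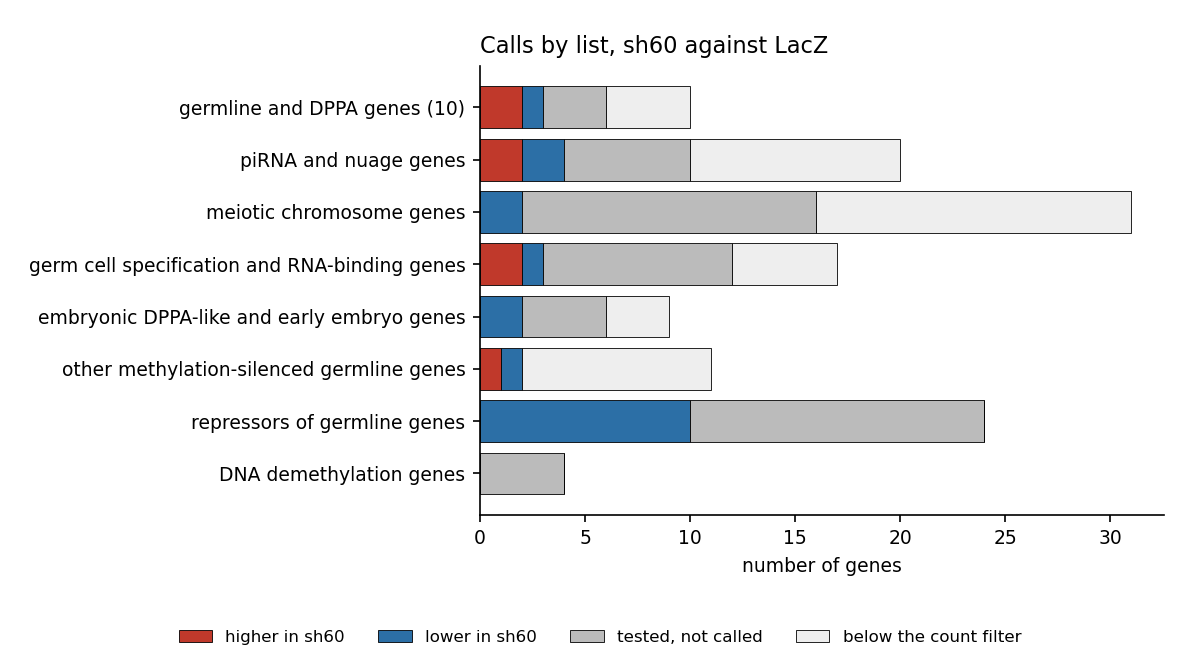
Number of genes higher in sh60, lower in sh60, tested but not called and below the count filter in the 10 genes described here and in each of the 7 related lists, by the edgeR test at an adjusted p of 0.05. All 24 repressor genes passed the filter and 10 were lower, while 15 of 31 meiotic chromosome genes and 9 of 11 other methylation-linked germline genes were below it. Over all tested genes 15.8% were higher and 13.0% lower.

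Among 20 other piRNA and nuage genes 10 were tested, of which 2 rose, 2 fell and 6 did not pass (median log2 fold change -0.23). With so few genes, these counts were near the 15.8% higher and 13.0% lower of all tested genes. SPOCD1, which in the mouse links piRNAs to DNA methylation of transposons, had 247 and 364 counts in sh60 replicates 1 and 2, against 109 and 60 counts in LacZ replicates 1 and 3. Its 3.30-fold rise (edgeR adjusted p = 1.29e-06) was called under all 12 alternatives. TDRD7, a tudor protein of germ granules that is also made in the lens, measured 4.82 and 5.81 CPM in sh60, against 3.47 and 2.03 CPM in LacZ (edgeR adjusted p = 0.00307). TDRD12 and TDRKH, tudor proteins of piRNA biogenesis, fell to 0.765 and 0.747 of their LacZ levels (edgeR adjusted p = 0.00741 and 0.0232). Neither was called without LacZ replicate 1 or without LacZ replicate 3, and TDRKH was also not called by DESeq2 or without sh60 replicate 2. RNF17 had no count in any library.

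Of 31 meiotic chromosome genes 16 were tested, and 0 rose and 2 fell by the edgeR test, where 15.8% of all tested genes were higher and 13.0% lower. Their median log2 fold change was -0.16, and SYCE3, SPO11, TERB2 and MAJIN had no count. DMC1, the meiotic strand-exchange recombinase, measured 4.70 and 4.24 CPM in sh60 replicates 1 and 2, against 6.84 and 6.72 CPM in LacZ replicates 1 and 3 (edgeR adjusted p = 0.00698). MND1, a partner of DMC1, fell to 0.793 of its LacZ level (edgeR adjusted p = 0.0277). Its log2 fold change lay between -0.41 and -0.26 under all 12 alternatives, and the call was lost without LacZ replicate 1 and without LacZ replicate 3.

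Of 17 genes of germ cell specification and germline RNA binding, 12 were tested, and 2 rose, 1 fell and 9 did not pass (median log2 fold change 0.014). These counts too were near the shares over all tested genes, 15.8% higher and 13.0% lower. PRDM1, the BLIMP1 repressor that specifies primordial germ cells, measured 12.2 CPM in both sh60 libraries, against 7.36 and 6.19 CPM in LacZ replicates 1 and 3 (1.79-fold, edgeR adjusted p = 0.000172). TEX15, which in the mouse takes part in piRNA-directed transposon silencing, averaged 16.9 ± 4.66 CPM in sh60 and 11.4 ± 0.366 CPM in LacZ (SD, n = 2 each; edgeR adjusted p = 0.0107), and the call was lost without sh60 replicate 1 (adjusted p = 0.166). NANOS1, an RNA-binding translational repressor, averaged 9.70 ± 1.80 CPM in sh60 and 13.8 ± 1.48 CPM in LacZ (SD, n = 2 each; edgeR adjusted p = 0.0126). Its call was lost without LacZ replicate 1 or without sh60 replicate 1.

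In the list of early-embryo genes expressed alongside the DPPA genes, 6 of 9 were tested, 0 rose, 2 fell and 4 did not pass. The shares over all tested genes were 15.8% higher and 13.0% lower, and 6 genes are too few to set against them. GDF3, a TGF-beta family ligand that lies 15.7 kb from DPPA3, measured 210.5 and 221.3 CPM in sh60 replicates 1 and 2, against 308.3 and 320.5 CPM in LacZ replicates 1 and 3. It fell to 0.687 of its LacZ level (edgeR adjusted p = 5.53e-05), opposite in direction to DPPA3. TDGF1, the NODAL coreceptor, fell to 0.713 of its LacZ level (edgeR adjusted p = 0.000389). Its log2 fold change lay between -0.58 and -0.43 under all 12 alternatives, and the call was lost without LacZ replicate 3 (adjusted p = 0.0571). DPPA5 had no count in these libraries. NANOG, 71.8 kb beyond DPPA3, measured 91.5 and 91.1 CPM in sh60, against 107.0 and 110.5 CPM in LacZ (edgeR adjusted p = 0.0332), a call lost with library totals only, without LacZ replicate 1 and without LacZ replicate 3. The glucose transporter gene SLC2A14, next after NANOG, had 850 and 1048 counts in sh60, against 768 and 485 counts in LacZ (edgeR adjusted p = 0.00377), a call lost without LacZ replicate 3. DPPA3 thus rose beside neighbours that were called in both directions.

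Other germline genes that DNA methylation is known to silence in the mouse or in human cells were mostly below the filter. Only TAF7L and STK31 of 11 were tested. TAF7L, a testis paralogue of a TFIID subunit, had 26 and 46 counts in sh60 replicates 1 and 2, against 7 and 13 counts in LacZ replicates 1 and 3. It passed the filter only through its sh60 libraries, so its call as higher is given as a description. STK31, a germ cell kinase-like tudor protein, averaged 1.18 ± 0.237 CPM in sh60 and 2.09 ± 0.231 CPM in LacZ (SD, n = 2 each; edgeR adjusted p = 0.0167). Both calls were lost without LacZ replicate 1 or without sh60 replicate 2, and that of STK31 also by DESeq2. TEX101, DPEP3, RPL10L and TUBA3C had no count in any library.

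The proteins that hold germline genes silent include the PRC1.6 complex, the histone methyltransferases SETDB1 and EHMT2, and the DNA methylation machinery. All 24 genes of this list were tested by the edgeR test, where 15.8% of all tested genes were higher and 13.0% lower. Of the 24 genes 0 rose, 10 fell and 14 did not pass, with a median log2 fold change of -0.18. The fallers numbered 17 once GC and length trends were removed, 4 without LacZ replicate 1 and 2 without LacZ replicate 3. UHRF1, which brings the maintenance methyltransferase to replicating DNA, measured 37.7 and 40.1 CPM in sh60 replicates 1 and 2, against 76.2 and 71.8 CPM in LacZ replicates 1 and 3. DNMT3B, a de novo DNA methyltransferase, measured 573.0 and 545.7 CPM in sh60, against 879.7 and 956.9 CPM in LacZ. The levels in sh60 were 0.526 of LacZ for UHRF1 (edgeR adjusted p = 1.11e-06) and 0.609 for DNMT3B (edgeR adjusted p = 2.47e-06), called under all 12 alternatives. RYBP and WDR5, subunits found in PRC1.6, fell to 0.756 and 0.757 of their LacZ levels (edgeR adjusted p = 0.00103 and 0.00143). RYBP was not called without LacZ replicate 3, and WDR5 was not called without LacZ replicate 1 or without LacZ replicate 3. Among 4 demethylation genes 0 were called by the edgeR test. TDG measured 187.5 and 174.6 CPM in sh60, against 171.0 and 166.1 CPM in LacZ, and TET1 87.3 and 72.9 CPM in sh60, against 78.7 and 76.1 CPM in LacZ. Whether the lower UHRF1 and DNMT3B levels have a part in the higher MAEL and DPPA3 levels was not tested.

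Around the 10 genes, 51 other genes lay within 200 kb, and 35 of them were tested. Of these 11 rose, 3 fell and 21 did not pass (40.0% called, median log2 fold change 0.20). The 11 include IL31RA, which passed the filter only through its sh60 libraries. Over all tested genes 28.8% were called, 15.8% higher and 13.0% lower. Some genes near those with few or no counts rose, and others did not pass. DRAM1, a p53-induced autophagy gene 137.9 kb from SYCP3, measured 42.1 and 38.4 CPM in sh60 replicates 1 and 2, against 15.5 and 18.6 CPM in LacZ replicates 1 and 3 (edgeR adjusted p = 3.12e-07). Closer to SYCP3, the overlapping CHPT1 and GNPTAB, 6.025 kb away, did not pass (edgeR adjusted p = 0.361 and 0.0747). Next to ASZ1, CFTR, the chloride channel of cystic fibrosis 52.4 kb away, had 93 and 99 counts in sh60 replicates 1 and 2, against 49 and 43 in LacZ replicates 1 and 3 (edgeR adjusted p = 0.00734). Its call was lost by DESeq2, without LacZ replicate 1 and without sh60 replicate 1. Next to DDX4, the cytokine receptor gene IL31RA had 9 and 17 counts in sh60, against 1 and 2 in LacZ (edgeR adjusted p = 0.0084), so it passed the filter through its sh60 libraries, and the call was lost without LacZ replicate 1 (adjusted p = 0.125). On the other side of DDX4 SLC38A9 also rose, as did IL6ST beyond IL31RA (edgeR adjusted p = 0.0104 and 0.000727). They were called under 10 and 11 of 12 alternatives. SYCP3, ASZ1 and DDX4 themselves stayed at 0 to 3 counts beside these neighbours. Near TDRD1, AFAP1L2 rose (edgeR adjusted p = 0.0321, called under 8 of 12 alternatives), while CCDC186 and VWA2 did not pass. Near DAZL, the lipid raft gene RFTN1 averaged 14.9 ± 1.01 CPM in sh60 and 8.41 ± 2.77 CPM in LacZ (SD, n = 2 each; edgeR adjusted p = 0.00124). Near PIWIL2, which is abundant and fell, PPP3CC rose 1.74-fold and BMP1 2.07-fold (edgeR adjusted p = 0.000829 and 4.59e-06). The other tested genes within 200 kb of PIWIL2 did not pass. Rising neighbours were thus not confined to the genes with few or no counts.

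Markers of other cell types were read beside these results. Of 8 fibroblast markers all were tested, and 3 rose and 2 fell, where 15.8% of all tested genes were higher and 13.0% lower. The 8 markers summed to 924.9 to 1089 CPM in sh60 and 445.1 to 541.8 CPM in LacZ, with no marker at 0 counts. Most of the higher sum in sh60 was COL1A1. It measured 553.7 and 684.0 CPM in sh60 replicates 1 and 2, against 141.4 and 84.9 CPM in LacZ replicates 1 and 3. COL1A2 (4.39-fold) and LUM (3.05-fold) also rose from lower levels. THY1 fell to 0.788 of its LacZ level and PDGFRA to 0.812 (edgeR adjusted p = 0.0455 for PDGFRA). COL3A1, PDGFRB and DCN did not pass. The log2 fold change of THY1 lay between -0.40 and -0.29 under all 12 alternatives, and its call was lost without LacZ replicate 1 and without LacZ replicate 3. The part of these marker changes in the rises of MAEL and DPPA3 was not tested. In bulk RNA, a change in the number of cells of a type and a change in RNA per cell cannot be told apart. Blood cell markers summed to 0.597 to 0.646 CPM in sh60 and 1.16 to 1.26 CPM in LacZ, with PTPRC and HBB at 0. Spermatid markers, which would mark later germ cells, summed to 0.176 to 0.398 CPM in sh60 and 0.233 to 0.499 CPM in LacZ, with PRM2 and TNP2 at 0. Testis somatic markers summed to 54.2 to 63.8 CPM in sh60 and 68.3 to 68.9 CPM in LacZ, with 6 of 8 tested, 0 called higher and 2 called lower by the edgeR test. The 2 were WT1 and FSHR, called under 12 and 7 of the 12 alternatives.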

How the data were processed

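The values are counts, whole numbers per gene and library that the authors deposited without normalization. The submitters' processing notes name STAR 2.7.6a, FastQC and hg19 (GRCh37). Per the file headers, exon reads were counted by strand (setting 2) with featureCounts, Subread 2.0.0. The command has no option for multi-mapped reads or reads over several genes, so by the tool's defaults these were left out. Exon lengths, another value in the files, also come from featureCounts, per the file headers.

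Genes were tested over the whole table with edgeR 4.0.16 in R 4.3.3 (TMM scaling, filterByExpr, glmQLFit and glmQLFTest, the group as the only term, all 4 libraries). Of 26364 genes 16040 were tested, and genes with a Benjamini-Hochberg adjusted p of at most 0.05 were called. Spread between replicates, as edgeR's common coefficient, was 7.33%. Library totals ran from 30338285 to 44788461 counts. No library repeated another: chi-square over degrees of freedom between replicates was 15.8 in sh60 and 5.89 in LacZ. Intervals are at 95%.

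Alternatives were other scalings, DESeq2 1.42.0, limma-voom (limma 3.58.1), other count filters and leaving out each library. A correction for GC content of GENCODE transcripts (matched for 97.3% of tested genes) and exon length was added after seeing the data. Genes to be named were the 10 genes, BEND3, up to 4 called genes with the smallest p in each list (or the 2 highest where none passed), and the 2 nearest neighbours on each side. Not every gene that met this rule is named in the text. Other neighbours named were chosen after their values were seen. The genes and lists were chosen with earlier results of these data known. Counts of CG and motifs were made on RefSeq promoter windows of GRCh38.p14.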

Additional observations from a re-analysis of the deposited data

How the results depend on the processing

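MAEL and DPPA3 kept their direction and their call under all 12 alternatives, with log2 fold changes of 1.46 to 1.75 and 0.64 to 0.90. Without LacZ replicate 1 the calls lower in sh60 among the 10 genes fell to 0, and over the fits that leave out 1 library they ran from 0 to 1. They were 2 with upper-quartile scaling, 2 with no count filter and 3 with GC and length trends removed, where 5 of the 10 genes were called in all. The log2 fold change of DPPA2 passed with upper-quartile scaling (-0.51), no count filter (-0.48) and GC and length trends removed (-0.55), and ran from -0.60 to -0.32 over the fits that leave out 1 library. That of DPPA4 passed with GC and length trends removed (-0.16). PIWIL2 ran from -0.45 to -0.21 and BEND3 from -0.56 to -0.36 when 1 library was left out. In the related lists 41 genes were called and 34 were lower with GC and length trends removed, and over the fits that leave out 1 library the calls ran from 11 to 32 and the lower ones from 7 to 27. Over all genes the calls then ran from 2287 to 5486, with 1331 to 2789 higher and 956 to 2697 lower in sh60, and 3708 were lower with GC and length trends removed. The cause of these shifts was not tested.

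Uncalled genes changed sign under some settings. GPA33 was 0.0047 with library totals only, and ran from -0.15 to 0.13 over the fits that leave out 1 library. TET1 was -0.078 after removal of GC and length trends, and ran from -0.087 to 0.17 with 1 library left out. VWA2, a neighbour of TDRD1, was -0.019 with upper-quartile scaling, and ran from -0.21 to 0.18 with 1 library left out. No paired analysis was possible because the groups share only replicate number 1. A single count was worth at least 0.0221 CPM, which limits what can be said of SYCP3, DDX4, TDRD1 and ASZ1.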
